A study of Mus musculus with 6 samples.

Results

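The plasma cell programme genes were 9 genes chosen by name, Irf4, Prdm1, Xbp1, Ell2, Jchain, Mzb1, Fkbp11, Slamf7 and Sdc1, of the 21774 genes in the deposited mRNA table. For each, the transcript with the largest mean over the 6 libraries stood for the gene, and all 9 passed the filter on low values. They were read in B cells isolated from mouse lung with B220 microbeads, in 3 control libraries and 3 libraries of a model of severe allergic inflammation of the airways, called severe asthma. All mice were wild type. Mice of the severe asthma group were given 10 μg of bacterial lipopolysaccharide (LPS) with 25 μg of an extract of house dust mites (HDM), dissolved in 35 μl of phosphate-buffered saline, through the trachea daily on days 0 to 2, then 25 μg of HDM by the airway daily on days 7 to 14. Control mice were given the saline alone. The labels give no strain, age or sex, and do not say whether a library came from 1 animal or several, so a p-value here rests on the spread among the 6 samples alone, and that spread may be technical. The study asks what lung B cells of asthmatic mice may contribute to inducible bronchus-associated lymphoid tissue.

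A B cell becomes a plasma cell by replacing its B cell identity with a programme of antibody secretion. The transcription factors Irf4 and Blimp-1 (encoded by Prdm1) drive the switch, Blimp-1 represses B cell genes, and Xbp1 expands the endoplasmic reticulum that folds and exports immunoglobulin. Plasmablasts keep some surface B220 and mature plasma cells lose most of it.

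The mRNA genes took 16498219 to 18054903 reads per library. B cell markers were abundant in every library: the summed value of 10 B cell markers was 297000 to 391000 adjusted reads in control and 404500 to 427400 in severe asthma. Other cells were present as well. Summed over 14 genes each, markers of monocytes and interstitial macrophages ran from 11770 to 26200 in control and from 94020 to 149200 in severe asthma, and epithelial markers from 27120 to 62180 and from 4961 to 9542. Control 1 stood apart, with the highest epithelial sum and the lowest B cell sum of the 6 libraries. In bulk samples, more cells of a type and more RNA per cell cannot be told apart. Values are the deposited library-size-adjusted reads, and limma gave the log2 fold changes, on log2(value + 1), their standard errors (SE) and the p-values, adjusted after Benjamini and Hochberg over the 15759 genes tested.

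Of the 9 genes, 5 rose in severe asthma and 0 fell at an adjusted p under 0.05. Across all genes tested, 20.7% rose and 14.4% fell. The risen genes were Jchain, Mzb1, Slamf7, Xbp1 and Ell2. Prdm1, Fkbp11, Sdc1 and Irf4 did not pass. For 6 genes, the risen 5 and Prdm1, all severe asthma libraries lay above all control libraries, as they did for 31.6% of all genes tested. For 0 of the 9 genes, against 21.6% of all, they lay below. The median log2 fold change was 0.60 over the 9 genes and 0.06 over all genes tested. Between 4 and 7 of the 9 rose over the 17 alternatives: 7 without control 1 and with the replicate block, in which library numbers enter the fit as pairs, and 4 without severe asthma 1, without severe asthma 2, with no filter on low values and with scaling by total reads alone. Across all genes that scaling gave 1920 risen and 3111 fallen in place of 3262 and 2263, and moved the median log2 fold change by -0.145.

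**Figure D1:**
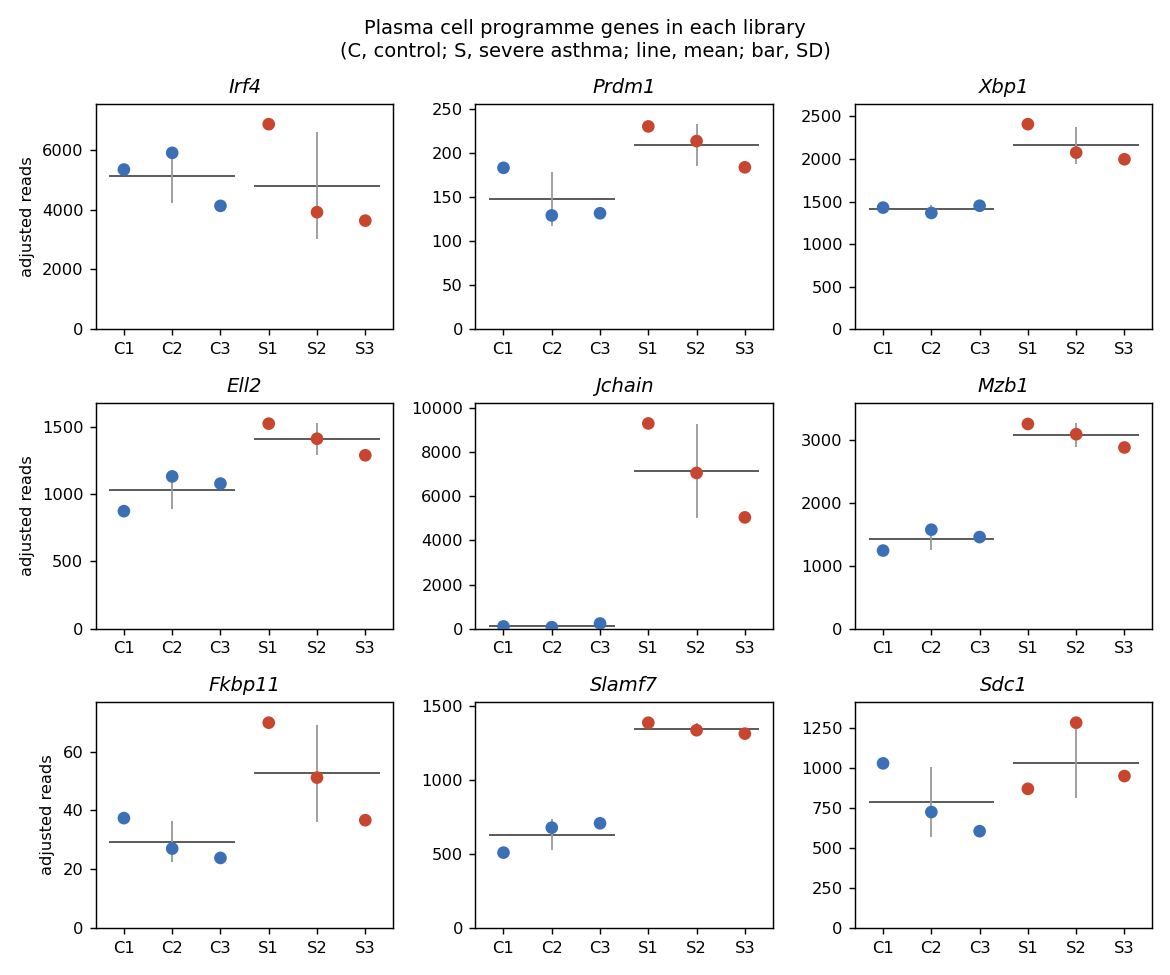
Library-size-adjusted reads (vertical axes, starting at 0) of the 9 genes in control libraries C1 to C3 (blue) and severe asthma libraries S1 to S3 (red), with the group mean as a line and the SD as a bar. Jchain lies between 66.0 and 234.3 in control and between 5047 and 9309 in severe asthma, while the groups overlap for Irf4, Fkbp11 and Sdc1.

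Among the 3 transcription factors, Xbp1 rose, and Irf4 and Prdm1 did not pass the test. Irf4 (mm10, chromosome 13, 30749233 to 30766981, plus strand) is needed both for germinal centre entry and, at high level, for plasma cell fate. Its value was 5334, 5892 and 4122 in controls 1, 2 and 3 and 6848, 3911 and 3629 in the severe asthma libraries in the same order of number. Severe asthma 1 was the highest of all 6 and severe asthma 3 the lowest, so the groups overlapped fully. The log2 fold change was -0.14 (SE 0.278, 95% interval -0.83 to 0.55, adjusted p = 0.736), and it turned to 0.03 without severe asthma 3.

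Prdm1 (chromosome 10, 44437174 to 44528558, minus strand) held 182.9, 129.0 and 131.5 adjusted reads in the 3 controls and 229.8, 213.2 and 183.5 in severe asthma. The groups did not overlap, but control 1 came within 1 adjusted read of severe asthma 3. The log2 fold change of 0.51 (SE 0.183, 95% interval 0.09 to 0.93) had an adjusted p of 0.0635. It passed with the replicate block (adjusted p = 0.0353) and, at 0.67, without control 1 (0.00832). In the authors' deposited table the log2 fold change of Prdm1 is 0.498, with 0.294 as its q-value.

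Xbp1 (chromosome 11, 5520641 to 5525993, plus strand) held 1429, 1366 and 1451 in control, a narrow range, and 2408, 2074 and 1996 in severe asthma. Every severe asthma library exceeded every control. Xbp1 rose by 0.60 on the log2 scale (SE 0.0846, adjusted p = 0.00257), and this call held in all 17 alternatives (adjusted p 1.13e-05 to 0.0342). The table lists 2 Xbp1 transcripts, with log2 differences of 0.60 and 0.62, but transcripts of a gene share reads there and are not separate measurements. Endoplasmic reticulum stress activates Xbp1 by removing 26 bases from its mRNA through the nuclease Ire1, which shifts the reading frame and yields the active factor. The stretch is shown because the transcript values cannot separate the cut from the uncut form, as reads from the rest of the mRNA count for both. It is taken from the GENCODE M21 transcript that matches the one measured, with the 26 removed bases in capitals, found as the run from the cut after CNG in the upstream CNGCAG loop to the same cut in the downstream loop.

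Xbp1, transcript positions 790 to 865: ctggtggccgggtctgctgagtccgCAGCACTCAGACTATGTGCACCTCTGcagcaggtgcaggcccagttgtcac

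Ell2 (chromosome 13, 75707484 to 75772361, plus strand), an elongation factor that in mouse plasma cells favours the secreted form of the heavy chain mRNA, held 873.0, 1131 and 1078 in control and 1523, 1411 and 1288 in severe asthma. The groups did not overlap. Ell2 rose by 0.46 on the log2 scale (SE 0.113, adjusted p = 0.0182). This call was lost without severe asthma 1 (0.0579) or severe asthma 2 (0.073), with no filter on low values (0.0932) and with scaling by total reads alone (0.062).

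Of the 3 members of the secretory pathway, Jchain and Mzb1 rose and Fkbp11 did not pass. Jchain (chromosome 5, 88519809 to 88527897, minus strand), the small chain that joins IgM and IgA into polymers, held 100.2, 66.0 and 234.3 adjusted reads in control and 9309, 7062 and 5047 in severe asthma. Control 3 was the highest control and severe asthma 3 the lowest of its group, and the groups lay far apart. The ratio of the group means was 53.5, and the log2 fold change 5.89 (SE 0.510, adjusted p = 0.00189), in place 8 of the genes tested when ordered by the size of their rise. Over the 17 alternatives it ran from 5.49 to 6.39 and stayed past the threshold (highest adjusted p 0.0208). Jchain is a single-transcript gene in the table.

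Mzb1, an endoplasmic reticulum chaperone of immunoglobulin assembly also made by marginal zone and B-1 cells, held 1242, 1574 and 1457 in control and 3256, 3093 and 2882 in severe asthma. The groups were well separated, with little spread within either. The log2 fold change was 1.12 (SE 0.0989, adjusted p = 0.000555), and the other Mzb1 transcript gave 0.97. Fkbp11 (chromosome 15, 98724368 to 98728198, minus strand), a peptidyl-prolyl isomerase of the secretory pathway, was low, at 37.4, 27.0 and 23.8 in control and 69.9, 51.2 and 36.7 in severe asthma. Severe asthma 3 fell just below control 1, so the groups overlapped. Its log2 fold change of 0.80 (SE 0.341, 95% interval 0.01 to 1.58) did not pass (adjusted p = 0.105), but did with the replicate block (0.0473) and, at 0.98, without control 1 (0.0473).

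Of the surface members, Slamf7 rose and Sdc1 did not pass, and the difference between them was not tested. Slamf7 (chromosome 1, 171632403 to 171653037, minus strand), a self-binding receptor of plasma cells that activated macrophages and natural killer cells also carry, held 509.2, 678.1 and 707.7 in control and 1388, 1337 and 1314 in severe asthma. The severe asthma libraries lay close together and far above all controls. Slamf7 rose by 1.105 on the log2 scale (SE 0.124, adjusted p = 0.00124), with 1.09 to 1.22 over its 9 listed transcripts. Of 14 markers of monocytes and interstitial macrophages 10 rose in the same libraries, against 20.7% of all genes tested. The count was 6 with the replicate block or without control 1, and 4 with no filter on low values. The part of these cells in the rise of Slamf7 was not tested.

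Sdc1 (chromosome 12, 8771396 to 8793716, plus strand) encodes syndecan-1 (CD138), the classical surface marker of plasma cells, which epithelial cells also carry. Its value was 1031, 726.2 and 606.2 in control and 871.4, 1286 and 951.5 in severe asthma. Control 1 exceeded 2 of the 3 severe asthma libraries, and the same library had the highest sum of the 14 epithelial markers (62180, against 27790 and 27120 in controls 2 and 3), whose part in the Sdc1 value was not tested. The log2 fold change was 0.41 (SE 0.231, 95% interval -0.15 to 0.97, adjusted p = 0.214). Without control 1 it was 0.62 (adjusted p = 0.0565).

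**Figure D2:**
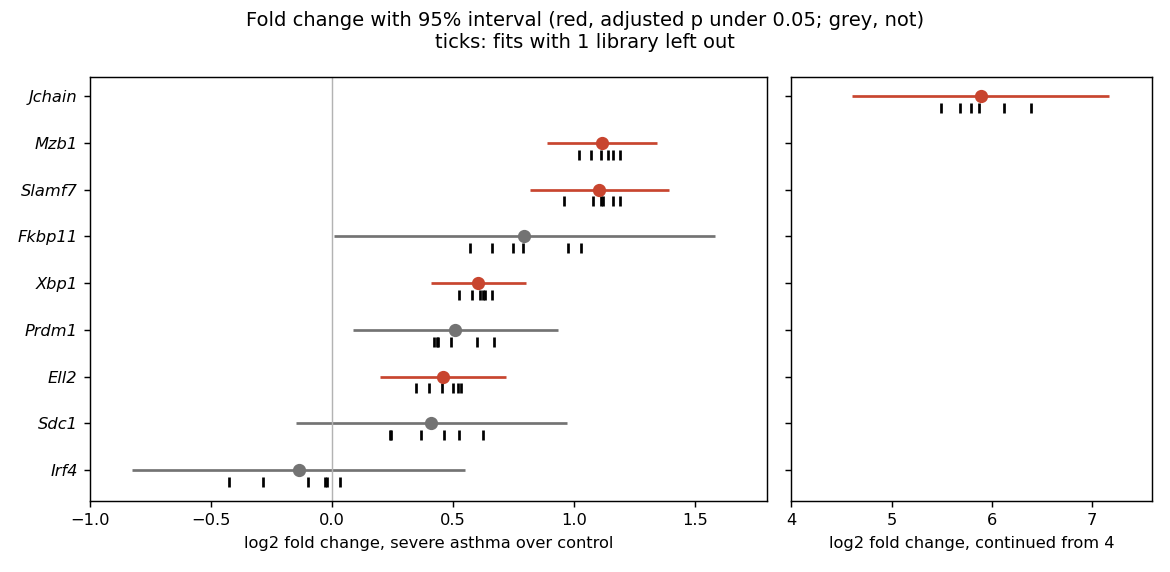
Log2 fold change of each gene with its 95% interval from limma (red, adjusted p under 0.05; grey, not), and, as black ticks, the fits with 1 library left out. The axis is broken so that Jchain (5.89) can be shown beside the other genes, which run from -0.14 for Irf4 to 1.12 for Mzb1.

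Levels can be compared between genes only per transcript length, taken from the matching GENCODE M21 transcript (734 bases for Fkbp11 to 4764 for Irf4). In control, adjusted reads per kilobase averaged 1575 ± 187 for Mzb1 (SD, n = 3), 1074 ± 190.0 for Irf4 and 665 ± 20.7 for Xbp1, and the 3 libraries of each gene did not overlap those of the next. Below them Sdc1 (250 ± 69.4), Ell2 (235 ± 31.1) and Slamf7 (159 ± 26.9) followed, with Sdc1 and Ell2 overlapping and both above Slamf7 in all libraries. Jchain (95.9 ± 63.9), Fkbp11 (40.1 ± 9.66) and Prdm1 (36.7 ± 7.56) had the lowest means. Jchain overlapped Slamf7 above it and Fkbp11 below it, and Fkbp11 overlapped Prdm1.

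In severe asthma the order of levels differed at the top. Jchain led with 5125 ± 1531 adjusted reads per kilobase (SD, n = 3), ahead of Mzb1 with 3404 ± 207, and the lowest Jchain library (3623) just exceeded the highest Mzb1 library (3602). Xbp1 (1014 ± 103) and Irf4 (1007 ± 374) overlapped. Slamf7 (339 ± 9.62), Sdc1 (328 ± 69.6) and Ell2 (321 ± 26.9) could not be ordered beyond their spread. Fkbp11 (71.7 ± 22.7) and Prdm1 (51.9 ± 5.82) had the lowest levels and overlapped.

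**Figure D3:**
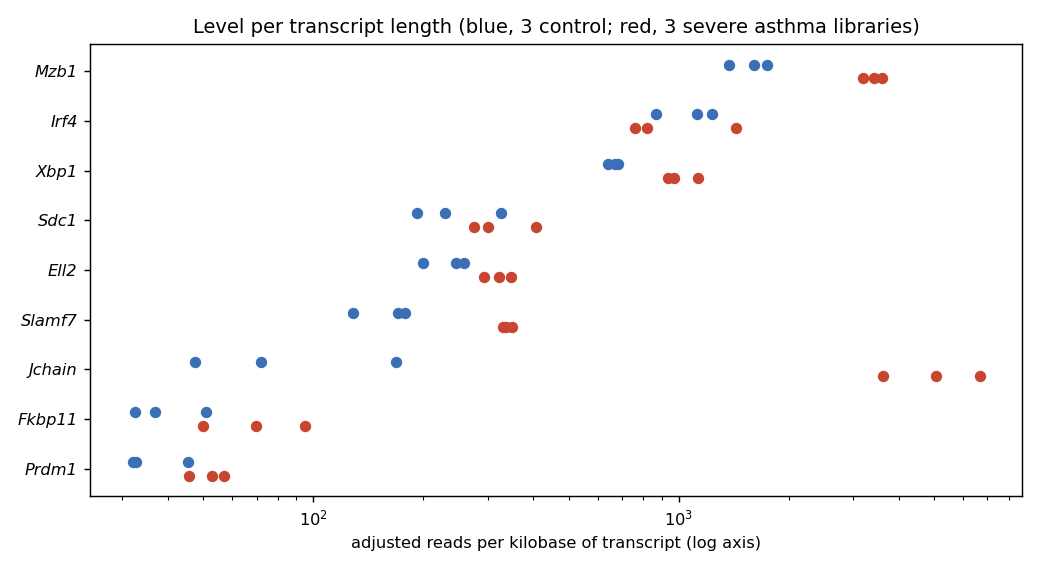
Adjusted reads per kilobase of transcript (log axis) of the 9 genes in the 3 control (blue) and 3 severe asthma libraries (red), ordered by the control mean. Jchain moves from 95.9 on average in control to 5125 in severe asthma, past Mzb1, while Irf4 averages 1074 and 1007.

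The severe asthma libraries had a shared order. For 8 of the 9 genes, all but Sdc1, the value was highest in severe asthma 1 and lowest in severe asthma 3. The same order was seen in 18.2% of all genes tested. It was picked from the values of the 9 genes themselves, and no other order was counted. The comparison with all genes is therefore a description and not a test. The span was widest for Irf4, Fkbp11 and Jchain and narrow for Slamf7 and Mzb1. Summed macrophage markers had another order, with severe asthma 1 the lowest of its group for monocytes and interstitial macrophages (94020, against 149200 and 101400) and for alveolar macrophages (23690, against 87090 and 55080). Sums of T cell markers (1446, 1363 and 1231) and conventional dendritic cell markers (18200, 16900 and 16360) had the order of the 8 genes. Epithelial, endothelial and fibroblast sums were also highest in severe asthma 1 (9542, 7981 and 2658). Neutrophil, plasmacytoid dendritic cell and B cell sums had the reverse order. The part of any of these cells in the order of the 8 genes was not tested.

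**Figure D4:**
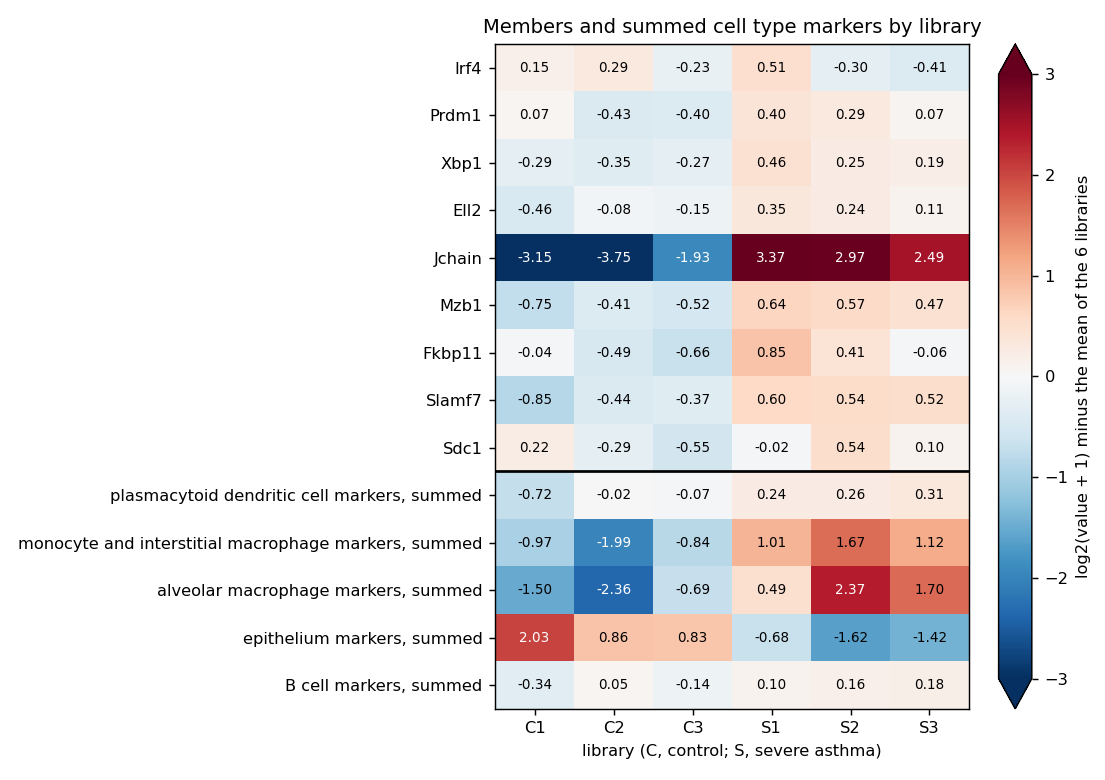
Log2(value + 1) of the 9 genes (above the line) and of summed markers of other cell types and of B cells (below it) in each library, minus the mean over the 6 libraries, with colours limited to 3 either side. Jchain spans -3.75 to 3.37. The macrophage sums are highest in S2 (1.67 and 2.37), and 8 of the 9 genes above the line are higher in S1 than in S2 and S3.

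Plasmacytoid dendritic cells carry B220 and are known to make Mzb1 mRNA, as well as Irf8 and Spib. Of 12 of their markers, all tested, 7 rose and 1, Tcf4, fell, with a median log2 fold change of 0.70. Of all genes tested, 20.7% rose and 14.4% fell, with a median of 0.06. Of the 12, 4 rose with no filter on low values, and 0 fell without severe asthma 2 or 3. Siglech, a surface lectin of these cells in mice, held 595.8, 645.1 and 616.5 in control and 1344, 992.7 and 1110 in severe asthma (log2 fold change 0.88, adjusted p = 0.00203). Its groups did not overlap. Tcf4 fell without overlap, from 3182, 2958 and 2929 in control to 2538, 2381 and 2384 in severe asthma (-0.31, adjusted p = 0.0117). The summed markers ran from 14360 to 23350 in control and from 27820 to 29350 in severe asthma. Spib supplied most of this sum in every library. Spib did not pass (0.65, adjusted p = 0.137), but did without control 1 (0.31, 0.0116). It is also listed here among the B cell genes that Blimp-1 represses, so the sum is not particular to plasmacytoid dendritic cells. The part of these dendritic cells in the rise of Mzb1 was not tested.

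Among other genes known from plasma cells, Tent5c, Derl3 and Prg2 rose. Of 24 tested, 10 rose, 2 fell and 12 did not pass, with a median log2 fold change of 0.43, against 20.7% risen, 14.4% fallen and a median of 0.06 over all genes tested. Without severe asthma 2, 6 rose and 0 fell, and 0 fell without control 3. Tent5c, a poly(A) polymerase that stabilises immunoglobulin mRNA, held 165.2, 121.0 and 202.6 in control and 1092, 801.8 and 690.6 in severe asthma. It rose by 2.40 on the log2 scale (SE 0.232, adjusted p = 0.00106), with no overlap and the same order of the severe asthma libraries as Jchain. Derl3, a component of endoplasmic reticulum-associated degradation abundant in plasma cells, rose by 2.098 (adjusted p = 0.00772), Eaf2, a partner of ELL factors, by 1.501 (0.0111) and Ly6c2, a surface protein of plasma cells and monocytes, by 1.08 (0.0107). Selplg (0.67) and Txndc5, an endoplasmic reticulum disulphide isomerase (0.37), also rose. The fallen genes were Cd93, which endothelial cells carry too (-1.09, adjusted p = 0.034), and the integrin chain Itga4 (-0.33, 0.02). All 8 endothelial markers fell in these libraries (0 with no filter on low values or without severe asthma 3, 1 without severe asthma 2, 2 without control 1), with summed values of 15620 to 42000 in control and 5226 to 7981 in severe asthma, and their part in the fall of Cd93 was not tested.

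Prg2 encodes the major basic protein of eosinophils and is also transcribed by mouse plasma cells. Its reads numbered 0, 1 and 1 in the controls, against 347, 300 and 144 in severe asthma. Its adjusted p was 0.000223, and the ratio of reads per total was 382 with a counting interval of 105 to 3160 (95%, exact binomial). Epx, eosinophil peroxidase, was listed at 0 reads in all 6 libraries, and Ccr3, the eosinophil eotaxin receptor, took 5, 0 and 0 reads in control and 1, 1 and 1 in severe asthma. Prg3, another eosinophil gene of the major basic protein family, took 0, 1 and 0 reads in control and 5, 3 and 5 in severe asthma, and rose (adjusted p = 0.0213; ratio of reads per total 12.6, counting interval 1.89 to 534). These comparison genes, and Tnfrsf17, were chosen after their values were seen. Tnfrsf17, which encodes the survival receptor BCMA of plasma cells, took 1, 2 and 1 reads in control and 5, 6 and 3 in severe asthma. It was higher in every severe asthma library, but did not pass (adjusted p = 0.0734).

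Several genes of the secretory pathway rose with Xbp1. Of 26 genes of endoplasmic reticulum folding, translocation and stress, 14 rose, 0 fell and 12 did not pass, with a median log2 fold change of 0.30. The list joins Xbp1 targets with other genes of the secretory pathway and of stress. Over all genes tested, 20.7% rose and 14.4% fell, and the median was 0.06. Without severe asthma 2, 8 of the 26 rose. Sdf2l1, a folding cofactor, held 184.8, 261.1 and 309.4 in control and 638.3, 716.4 and 612.2 in severe asthma, without overlap, and rose by 1.41 on the log2 scale (SE 0.183, adjusted p = 0.00221). The translocon subunits Sec61b (0.83, adjusted p = 0.000857) and Ssr4 (0.62, 0.00395) and the peroxiredoxin Prdx4 (0.74, 0.00463) rose as well. Hspa5, the main chaperone BiP, rose by 0.26 (0.0439). Genes of the stress sensors and of the stress-induced death branch did not pass, with log2 fold changes of -0.14 for Ern1 (encoding Ire1), 0.11 for Atf6, -0.06 for Atf4 and 0.07 for Ddit3. Dnajb9, a sensitive target of spliced Xbp1, was high in severe asthma 1 (1644) but not in severe asthma 2 and 3 (927.7 and 788.8, against 849.2 to 1090 in control).

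B cell genes that Blimp-1 is known to repress changed in both directions. Of 18 tested, 6 rose, 2 fell and 10 did not pass, against 20.7% risen and 14.4% fallen over all genes tested. Their median log2 fold change was 0.09, and -0.05 with scaling by total reads alone. The number risen was 3 without control 3 or any 1 severe asthma library, as it was with limma-voom, with edgeR, with total reads alone and with no filter on low values. Pax5, the keeper of B cell identity, held 19750, 23000 and 22410 in control and 25230, 22490 and 24880 in severe asthma (log2 fold change 0.16, adjusted p = 0.206). Bach2, which holds Prdm1 down, held 4411, 5024 and 4642 against 5016, 4354 and 4768 (0.01, adjusted p = 0.965), and the groups of both genes overlapped. Ciita, the class II regulator, rose from 8551 to 9257 in control to 13770 to 13850 in severe asthma (0.65, adjusted p = 0.00094). Irf8, a factor that guides early B cell and dendritic cell fate, rose by 0.73 (adjusted p = 0.00338). Ets1, which restrains plasma cell formation in mice, fell from 27610 to 28970 in control to 19010 to 20140 in severe asthma (-0.52, adjusted p = 0.00221), and the follicle receptor Cxcr5 fell by 0.53 on the log2 scale (0.00368).

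Partners and regulators upstream of the programme rose in 9 of 16 cases and fell in 0, with a median log2 fold change of 0.48. Over all genes tested, 20.7% rose and 14.4% fell, and the median was 0.06. Between 6 and 11 of the 16 rose over the alternatives, and 0 fell in any. The lowest count, 6, came without severe asthma 2. The highest, 11, came with the replicate block and without control 2. Mef2b, a germinal centre factor upstream of Bcl6, rose by 4.30 (SE 0.249, adjusted p = 0.000216), from 23.6, 35.0 and 47.1 adjusted reads to 694.7, 616.3 and 760.0. Zbtb32, a repressor found in memory and plasma cells (2.11, adjusted p = 0.0016), and Bhlhe41 of B-1 cells (1.199, 0.00268) rose too. Of the partners that bind DNA with Irf4, Spi1 (encoding PU.1, also abundant in macrophages) rose by 0.82 (0.0043) and Batf by 0.60 (0.0101), while Irf4 itself did not pass. Of the 10 general B cell markers 3 rose and 0 fell, against 20.7% risen and 14.4% fallen over all genes tested. The 3 were Cd74, Cd22 and Cd79a, which rose by 0.31 to 0.41 on the log2 scale (adjusted p 0.0444 to 0.0468). Of these, 0 passed without control 3 or any 1 severe asthma library. Without control 1, 1 passed.

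**Figure D5:**
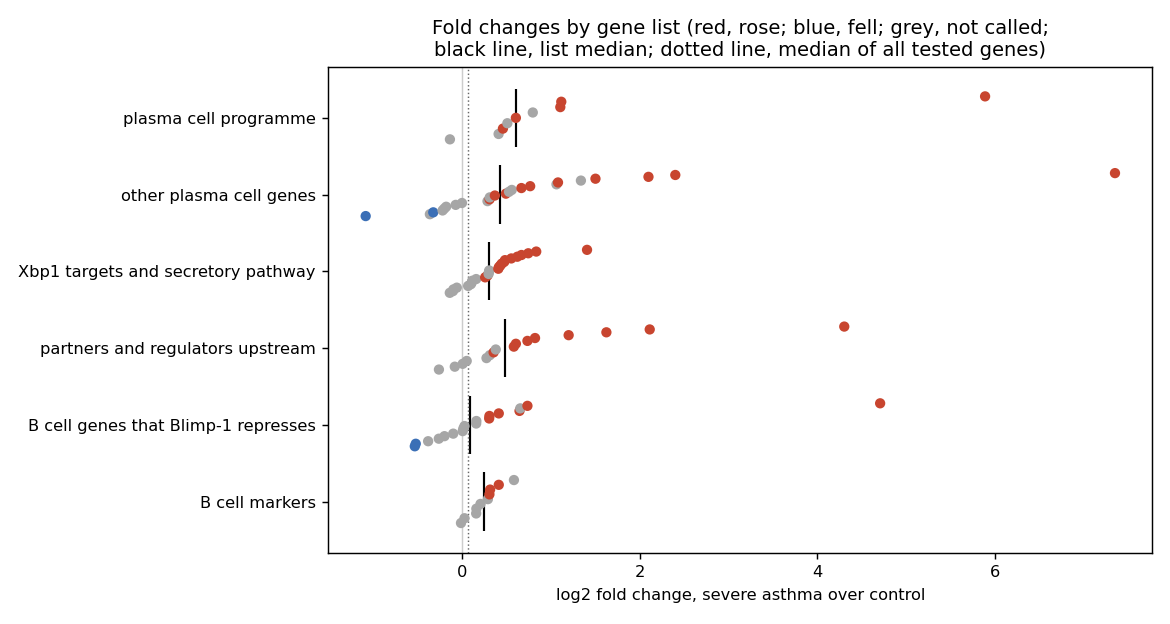
Log2 fold changes of the genes tested in each list (horizontal axis; 1 point per gene, red rose, blue fell, grey not called), with the list median as a black line and the median of all tested genes (0.06) dotted. List medians are 0.60 for the 9 genes, 0.43 for other plasma cell genes, 0.30 for the secretory pathway, 0.48 for upstream regulators, 0.09 for B cell genes that Blimp-1 represses and 0.25 for B cell markers.

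The pattern of Jchain over the 6 libraries was most like that of Gatm, Gcsam, H2-M2, Gpnmb and Pclaf. Likeness was the root mean square difference of the centred log2 values, the smallest 5 among the 11361 genes whose mean reached 50 or more. The difference was 0.401 for Gatm, an enzyme of creatine synthesis (log2 fold change 5.29), 0.464 for Gcsam, an adaptor protein made in the germinal centre (6.40), 0.686 for H2-M2, of the non-classical class I family (6.81), 0.719 for Gpnmb, a lysosomal glycoprotein of macrophages (5.09), and 0.769 for Pclaf, a replication factor (4.69). All 5 had groups that did not overlap, as Jchain did, which follows from choosing genes this close to it. Gpnmb did not pass without control 1 (adjusted p = 0.0662). The measure follows the size of the change between groups above all.

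Of the 9 genes, 8 had a promoter in the RefSeq table (GRCm38.p6, 250 bases before to 50 after the start), with 9 promoters in all as Fkbp11 had 2 starts, and Mzb1 had none. These were searched on both strands for the Blimp-1 core GAAAGTG, the IRF repeat, the ETS-IRF composite, the Xbp1 element core TGACGTGG, the stress element end CCACG and the octamer ATGCAAAT. The IRF repeat and the composite can overlap. None of the 9 promoters held the IRF repeat, the composite, the Xbp1 core or the octamer, which occur in 3.44%, 2.72%, 0.676% and 1.74% of the 32851 promoters in the table. CCACG was found in 4, those of Prdm1, Sdc1, Irf4 and 1 of Fkbp11, against 32.8% of all promoters, and GAAAGTG in 1, that of Irf4, against 4.81%. Windows of 2 genes are shown, that of Jchain because it had the largest rise and held none of the motifs, and that of Irf4 because it held both kinds of match, in capitals (CCACG on the plus strand, and CACTTTC, the reverse complement of GAAAGTG). A match is a description of these letters only.

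Jchain, chr5:88527848-88528147, minus strand: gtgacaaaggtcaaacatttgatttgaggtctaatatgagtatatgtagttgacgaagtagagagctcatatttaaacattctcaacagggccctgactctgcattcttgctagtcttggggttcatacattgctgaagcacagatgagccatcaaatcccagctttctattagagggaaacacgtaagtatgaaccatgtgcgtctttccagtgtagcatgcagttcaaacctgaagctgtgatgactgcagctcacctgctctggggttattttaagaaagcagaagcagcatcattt

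Irf4, chr13:30748983-30749282, plus strand: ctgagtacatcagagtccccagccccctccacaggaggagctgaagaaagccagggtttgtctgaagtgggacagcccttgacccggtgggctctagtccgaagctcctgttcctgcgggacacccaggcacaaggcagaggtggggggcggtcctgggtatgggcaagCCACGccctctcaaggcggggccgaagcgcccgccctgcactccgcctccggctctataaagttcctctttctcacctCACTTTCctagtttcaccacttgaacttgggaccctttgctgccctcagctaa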

How the data were processed

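Polyadenylated RNA of 6 libraries was sequenced. Per the submitters' processing notes, the tools were bcl2fastq, HISAT2 2.1.0 and HTSeq 0.11.2 with the build mm10; whether strand was used in counting is not given in the sources used here. The authors deposited, per transcript, a signal adjusted to a common library size, with their own log2 fold changes and their p-values and q-values, whose test is not given in the sources used here. All 429494 deposited signal values above 0.5 were rebuilt to within 0.001 from whole reads (100%) by edgeR's quantile adjustment with a dispersion of 0.0474, and those reads were used in the count-based alternatives.

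For each gene the transcript of the highest mean was kept. Genes whose mean was 1 or more (15759 of 21774) were fitted on log2(value + 1) with limma-trend and robust variance moderation (limma 3.58.1, R 4.3.3), severe asthma against control, two-sided, with Benjamini-Hochberg adjustment and a threshold of 0.05. The 17 alternatives changed the pseudocount, filter, transcript choice, scaling or tool (limma-voom, edgeR 4.0.16, DESeq2 1.42.0), added a replicate block or left out 1 library. The limma fit was also run on simulated data with a single dispersion for all genes and few changed genes. That setting differs from these data, so the run does not show how reliable the calls are here.

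Deviations from the group means correlated at 0.587, 0.236 and 0.269 between libraries of the same number. Controls 2 and 3 correlated at 0.306 and 0.338 with severe asthma 3 and 2. The labels do not state a pairing, and these values do not settle one. The main fit used no pairs, and only the replicate block among the alternatives took library numbers as pairs. Precision is limited by 3 libraries a group, and the interval on read ratios covers counting error only.

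The 9 genes and all gene lists were chosen with earlier results of these data known. Named were the 9 genes, up to 4 genes of smallest p per list, and the 5 genes most like Jchain; the other genes named were picked from the lists, or added for comparison (Epx, Ccr3, Prg3), after their values were seen. Fam46c is an older name of Tent5c. The 12 immunoglobulin constant genes listed matched no row by symbol and are not analysed here. The values of 1 listed gene are not reported here. Promoters and gene positions are from RefSeq (GRCm38.p6). Transcript lengths, gene strands and the positions within the Xbp1 transcript are from GENCODE M21. Slamf7 and Ell2 overlap small RNA genes, so their values could include reads of these.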

Additional observations from a re-analysis of the deposited data

How the results depend on the processing

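The calls of Xbp1, Jchain, Mzb1 and Slamf7 held in all 17 alternatives, and none of the 9 genes fell in any. With the replicate block, Prdm1 (0.509, adjusted p = 0.0353) and Fkbp11 (0.795, 0.0473) passed the limma threshold; the block changed no other call among the 9 genes. Ell2 did not pass with no filter on low values (0.459) or with scaling by total reads alone (0.313). Leaving out 1 library at a time gave log2 fold changes of 0.421 to 0.671 for Prdm1, 0.346 to 0.532 for Ell2, 0.57 to 1.03 for Fkbp11 and -0.425 to 0.0324 for Irf4, the last turning positive without severe asthma 3 (adjusted p = 0.948). Genes that rose numbered 1312 with no filter, 1920 with total reads and 1573 to 3403 with 1 library left out, and those that fell 387 with no filter and 730 to 2337 with 1 left out. With no filter, 3 other plasma cell genes rose and 0 fell, 5 secretory genes rose, and 3 B cell genes that Blimp-1 represses and 0 B cell markers rose. Leaving out 1 library gave 6 to 12 other plasma cell genes risen and 0 to 3 fallen, 8 to 15 secretory genes, 3 to 6 Blimp-1-repressed genes and 0 to 3 B cell markers risen. Total reads, limma-voom and edgeR each gave 3 Blimp-1-repressed genes and 0 B cell markers risen, the non-robust fit gave 0 B cell markers, and with total reads 1 secretory gene fell. Among cell type markers that passed in no fit, Cd8a turned to -0.107 with total reads, -0.0456 with limma-voom, -0.12 with edgeR, -0.144 with DESeq2, and -0.22, -0.0926 and -0.112 without control 1, control 2 and severe asthma 1 (0.421 at the highest, without control 3), and S100a8 to -0.0317 with total reads, -0.00968 with DESeq2 and -0.00927 without control 1 (0.328 at the highest, without control 3). The causes of these differences between fits were not tested. With 3 libraries a group, genes of wide spread such as Irf4 have intervals too broad to show a small change.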
